A study of Mus musculus with 2 samples.

Results

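Mono 1 is one of the 10 populations that the authors named in single cells of the normal mouse aorta. Its members are the 443 cells that carry this name (originally Monocytes-1), of 5451 cells in all. Cells came from 2 libraries made from dissociated whole aortas of wild-type C57/BL6 mice labelled female, aged 12 weeks and fed chow. The labels do not say which library is which mouse. P-values measure the scatter that remains between the 2 libraries once their shared difference is removed, pooled over the 10 populations. The aorta was taken from its root to the femoral branching without perivascular fat, digested with enzymes for 1 h at 37 °C, and treated to lyse red cells. No step selecting immune cells is described, and the study asked mainly how the endothelial populations of the vessel differ. The data are counts of UMIs (unique molecular identifiers, 1 per captured transcript), and levels are given as CPM, the UMIs of a gene per 1000000 UMIs of all genes in that population and library.

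Resident macrophages settle in a tissue and maintain themselves there, and in arteries many lie in the outer layer, the adventitia. They take up dead cells, debris and lipoproteins through scavenger receptors, make complement component C1q, recycle iron, and send chemokines and growth factors to neighbouring cells. Monocytes and dendritic cells enter from blood, depend on other receptors such as CCR2 and FLT3, and dendritic cells present antigen on MHC class II molecules.

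Mono 1 made up 8.01% of the cells of library 1 (181 of 2260, exact 95% binomial interval 6.92 to 9.21) and 8.21% of library 2 (262 of 3191, 7.28 to 9.22), a mean of 8.11% ± 0.143 (SD, n = 2). The intervals cover counting error only, and they overlap. Mono 1 cells held 699322 UMIs in library 1 and 1249823 in library 2, with medians of 3574 and 4421.5 UMIs and of 1534 and 1701 genes per cell. Median mitochondrial shares were 3.20% and 3.61%. The whole libraries held 11104066 and 19484171 UMIs over 16971 genes. The libraries shared 12 cell barcodes, of which 1 lay in Mono 1 in either library and 0 in both.

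Library 2 went against its label. The X-inactivation transcript Xist, which is made in female cells, had 661 UMIs (945 CPM) in Mono 1 of library 1 and 0 in Mono 1 of library 2. The Y-linked genes (Ddx3y, Eif2s3y, Uty and Kdm5d) together had 0 UMIs in Mono 1 of library 1, where 3 counts would be 4.29 CPM, and 33 UMIs (26.4 CPM) in Mono 1 of library 2. Over all populations Xist had 7900 UMIs in library 1 and 5 in library 2, and the Y-linked genes 0 and 510. Library and sex therefore cannot be told apart here, so pairs of levels of 1 gene or list are given for library 1 and then library 2 unless the libraries are named.

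The name given to these cells was first set against markers of resident macrophages. The markers were C1qa (a chain of complement component C1q), Folr2 (a folate receptor), Pf4 (platelet factor 4, a chemokine), Mrc1 (the mannose receptor) and Stab1 (the scavenger receptor stabilin). C1qa stood at 7996 and 7301 CPM in Mono 1 of libraries 1 and 2, against 387 and 685 in Mono 2 and 29.3 and 46.0 in Macro, the other immune populations. Folr2 stood at 1327 and 1335 CPM in Mono 1, against 0 and 2.02 in Mono 2 and 4.18 and 7.08 in Macro. Pf4 reached 4923 and 5195 CPM in Mono 1, against 20.4 and 117 in Mono 2 and 16.7 and 24.8 in Macro. All 3 genes were higher in Mono 1 in both libraries, with no overlap. Mrc1 had 1451 and 1675 CPM in Mono 1, against 194 and 216 in Mono 2 and 0 and 3.54 in Macro. Stab1 had 675 and 741 CPM in Mono 1, against 13.6 and 10.1 in Mono 2 and 0 and 7.08 in Macro. Outside the immune populations Stab1 was also found in endothelial cells, where its mean reached 504 CPM in EC 3.

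**Figure D1:**
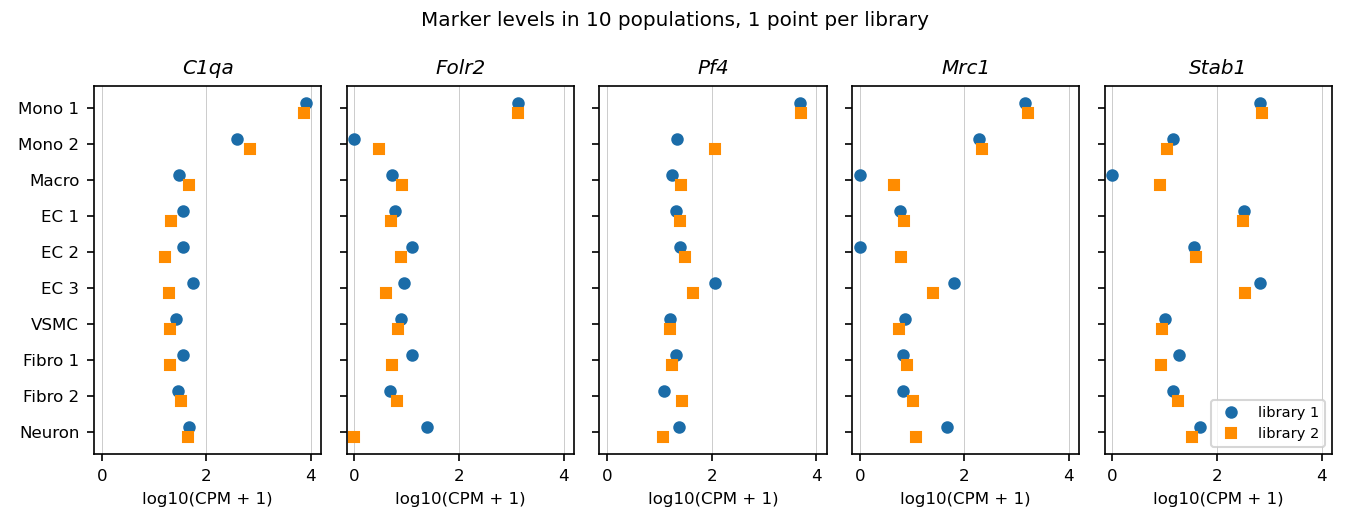
Levels of the 5 markers on the log10(CPM + 1) scale in the 10 populations, with Mono 1 on top and 1 point for each library. Mono 1 stands to the right of the other 9 populations for C1qa, Folr2, Pf4 and Mrc1, while Stab1 in EC 3 of library 1 lies close below the 675 CPM of Mono 1.

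Single cells carried these markers together. All 5 markers were detected in 70.7% of Mono 1 cells of library 1 and 80.2% of library 2, at least 3 of them in 96.7% and 99.2%, and 0 cells lacked all 5. In smooth muscle cells (VSMC), which should lack these genes and so show the level of free RNA, at least 3 markers were found in 0.363% and 0.189% of cells, although VSMC were deeper (median 4648 and 7154 UMIs). With each cell thinned to 1300 UMIs, C1qa was detected in 100% of Mono 1 cells of both libraries, against 3.26% and 3.12% of VSMC. Folr2 was detected in 61.9% and 68.3% of thinned Mono 1 cells, against 1.27% and 1.04% of VSMC, and in 79.0% and 86.6% against 3.63% and 4.17% without thinning. Stab1 was detected in 59.7% and 56.5% of thinned Mono 1 cells against 1.81% and 0.947% of VSMC, and in 84.5% and 90.1% against 4.62% and 5.40% without thinning. No Mono 1 cell was too shallow to be thinned.

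Promoters of the C1q genes and of the markers are shown because these genes mark Mono 1 and the myeloid factor PU.1 (Spi1) is known to bind purine-rich sites around GGAA in promoters of macrophage genes. The windows run from 250 bases before to 50 after the start given by RefSeq (build GRCm38.p6), and 4 of the 5 markers had a window. The letters GAGGAA, or TTCCTC for the opposite strand, are in capitals. The windows are C1qb (chr4:136886151-136886450, minus strand), C1qc (chr4:136892865-136893164, minus strand), Pf4 (chr5:90772185-90772484, plus strand), Mrc1 (chr2:14229164-14229463, plus strand) and Stab1 (chr14:31168592-31168891, minus strand).
C1qb: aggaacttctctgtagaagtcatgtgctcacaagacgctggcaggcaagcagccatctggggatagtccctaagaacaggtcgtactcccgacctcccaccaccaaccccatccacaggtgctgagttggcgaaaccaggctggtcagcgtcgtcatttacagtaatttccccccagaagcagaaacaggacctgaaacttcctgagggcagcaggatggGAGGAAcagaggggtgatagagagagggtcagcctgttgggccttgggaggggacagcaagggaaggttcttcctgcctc
C1qc: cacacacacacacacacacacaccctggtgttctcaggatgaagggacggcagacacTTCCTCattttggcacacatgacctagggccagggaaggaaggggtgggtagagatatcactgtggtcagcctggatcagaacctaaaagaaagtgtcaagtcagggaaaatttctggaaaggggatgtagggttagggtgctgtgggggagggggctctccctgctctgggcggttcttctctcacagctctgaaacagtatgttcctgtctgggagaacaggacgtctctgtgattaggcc
Pf4: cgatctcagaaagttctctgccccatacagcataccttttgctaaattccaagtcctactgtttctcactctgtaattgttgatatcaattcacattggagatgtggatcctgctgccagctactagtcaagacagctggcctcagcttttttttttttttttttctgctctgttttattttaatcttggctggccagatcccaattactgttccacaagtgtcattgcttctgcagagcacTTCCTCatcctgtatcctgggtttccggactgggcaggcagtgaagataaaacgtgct
Mrc1: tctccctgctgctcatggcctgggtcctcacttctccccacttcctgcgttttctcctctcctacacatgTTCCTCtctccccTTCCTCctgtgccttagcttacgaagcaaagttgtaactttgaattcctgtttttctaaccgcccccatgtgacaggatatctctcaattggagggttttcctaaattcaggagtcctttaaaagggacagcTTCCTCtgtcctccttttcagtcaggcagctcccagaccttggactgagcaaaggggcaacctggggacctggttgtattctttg
Stab1: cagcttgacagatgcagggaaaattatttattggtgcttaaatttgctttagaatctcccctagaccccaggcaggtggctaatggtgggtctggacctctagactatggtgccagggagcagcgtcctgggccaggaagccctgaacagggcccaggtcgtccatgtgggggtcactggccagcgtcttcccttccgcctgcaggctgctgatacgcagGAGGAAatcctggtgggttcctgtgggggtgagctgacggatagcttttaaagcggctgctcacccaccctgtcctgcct
The letters lay 30 bases before the start in both C1qb and Stab1, 8 bases before it in Pf4, on the opposite strand, and 193 bases before it in C1qc, also on the opposite strand. Mrc1 held them at 3 places on the opposite strand, the farthest 180 bases before the start. Both Folr2 windows lacked them, so that 3 of the 5 windows of the matched markers held them. Of all 32851 windows of this length 28.3% held the letters on either strand, and of the 254 windows of genes called higher in Mono 1 than in each other population (defined below; 197 of 263 genes had a window) 39.4% did. TGCTGA, or TCAGCA on the other strand, a core of the sites that MAF factors bind, was in 19.5% of all windows and 19.7% of those 254. These shares describe letters in the windows, with no measurement of binding.

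Differences were taken from 1 edgeR quasi-likelihood fit to the UMIs summed over each population and library, with the library as a block. Folds are log2 values with the standard error derived from the test, n = 2 libraries throughout, and a called gene has a Benjamini-Hochberg adjusted p under 0.05 over all 10488 genes tested. The populations were named from the same cells, so the calls describe how Mono 1 differs and do not test that it exists. Against the mean of the 7 non-immune populations 40.3% of tested genes were called, 24.0% higher in Mono 1 and 16.2% lower. Of the 2519 genes called higher, 2240 (88.9%) were higher in both libraries, and all 1703 called lower were lower in both. Against Mono 2, 17.1% were called, 9.01% (945 genes) higher and 8.12% (852) lower. Against Macro, 24.0% were called, 14.1% (1480) higher and 9.94% (1042) lower. Macro is a mixed partner: genes of T and NK cells summed to 2962 and 3628 CPM in it, against 17.2 and 14.4 CPM in Mono 1 (3 of 8 at 0), and at least 2 UMIs of B cell genes were found in 32.6% and 25.6% of Macro cells, against 1.66% and 0.382% of Mono 1 cells and 0.0907% and 0.189% of VSMC. Where a gene had 0 UMIs in a partner population the fold is given as a lower bound against 3 counts over that population, and with 1 to 3 UMIs as a ratio with its 95% counting interval. Medians of gene lists use these bounds and ratios, and over all tested genes these medians were 0.06 against Mono 2 and -0.0006 against Macro.

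Genes called higher in Mono 1 than in each of the 9 other populations numbered 263, or 2.51% of those tested, and for 134 of them Mono 2 was the population with the nearest level. Cd209f, a C-type lectin related to DC-SIGN, led them with 510 and 550 CPM in Mono 1 and 0 UMIs in Mono 2 and in Macro, at least 141-fold and 93.1-fold higher. Folr2 followed, with a single UMI in Mono 2 (ratio 1054, 189 to 41629) and 3 in Macro (ratio 232, 79.2 to 1124). Next came the homeobox gene Lbx1, with only 69 UMIs in Mono 1 (21.4 and 43.2 CPM) and 0 UMIs in Mono 2 and in Macro. The phospholipase gene Pla2g2d had 157 and 139 CPM in Mono 1, against 0 and 2.02 in Mono 2 (1 UMI, ratio 115, 20.5 to 4567) and 0 UMIs in Macro. Cd209g had 152 and 154 CPM in Mono 1, against 1 UMI in Mono 2 and 0 in Macro. The ficolin gene Fcna, whose product recognises sugars on microbes, had 297 and 323 CPM in Mono 1 and 0 UMIs in Mono 2 and in Macro, at least 82.8-fold and 54.6-fold higher. These genes had almost no UMIs in the other immune populations of either library. Also among the leading 20 were Ltc4s, the leukotriene C4 synthase, with 789 and 595 CPM in Mono 1, against 17.0 and 10.1 in Mono 2 and 12.5 and 3.54 in Macro, and the purine receptor gene P2ry12, with 91.5 and 80.8 CPM in Mono 1, against 0 and 4.03 in Mono 2 and 0 UMIs in Macro. The P2ry12 call against Mono 2 was lost with cells thinned. Only 2 genes (0.0191%) were called lower in Mono 1 than in each of the 9 others. Tmsb10, which encodes the actin-binding peptide thymosin beta, stood at 220 and 250 CPM in Mono 1, against 3501 and 3027 in Mono 2 and 5166 and 5448 in Macro. Cdc42ep3, an effector of the GTPase CDC42, stood at 12.9 and 6.40 CPM in Mono 1, against 40.8 and 32.2 in Mono 2 and 75.3 and 106 in Macro, and its call against Mono 2 was lost with cells thinned.

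The wider resident macrophage list, of which 23 genes were tested, was called higher in Mono 1 for 23 against the non-immune populations, 22 against Mono 2 and 23 against Macro, with medians of 4.47 against Mono 2 and 7.09 against Macro. The list shares all 5 markers, and it was chosen with these data known. Lyve1, the hyaluronan receptor that marks macrophages along vessels and also lymphatic endothelium, had 1238 and 1334 CPM in Mono 1, against 6.79 and 6.05 in Mono 2 and 8.37 and 7.08 in Macro. Its level was higher still in EC 3 (mean 1942 CPM), so Lyve1 was not among the genes above every other population. The lymphatic factor gene Prox1 had 1.43 and 4.00 CPM in Mono 1, against 132 and 179 in EC 3, and the lymphatic growth factor receptor gene Flt4 had 0 UMIs in Mono 1, against 404 and 222 CPM in EC 3. The haemoglobin scavenger Cd163 had 785 and 1071 CPM in Mono 1, against 109 and 68.5 in Mono 2 and 4.18 and 10.6 in Macro, a fold of 3.35 ± 0.20 over Mono 2. F13a1, the A chain of coagulation factor XIII, had 2051 and 1957 CPM in Mono 1, against 194 and 234 in Mono 2, a fold of 3.07 ± 0.21. Sepp1, the selenium carrier selenoprotein P, had 6303 and 6618 CPM in Mono 1, against 194 and 252 in Mono 2 and 301 and 294 in Macro (4.72 ± 0.20 and 4.56 ± 0.20). For each of these genes the populations did not overlap in either library. Timd4, a phosphatidylserine receptor of long-lived macrophages, had 162 and 103 CPM in Mono 1, against 44.1 and 4.03 in Mono 2 and 0 UMIs in Macro (at least 21.6-fold higher), and was detected in only 19.9% and 8.78% of thinned Mono 1 cells (VSMC 0.181% and 0.0947%; 35.9% and 26.0% against 0.635% and 0.189% without thinning). The Timd4 call against Mono 2 was lost with cells thinned. Fcrls, an Fc receptor-like gene, was the exception against Mono 2, with 532 and 519 CPM in Mono 1 and 842 and 457 in Mono 2 (-0.35 ± 0.15, edgeR quasi-likelihood adjusted p = 0.117).

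General macrophage genes were split. All 12 tested were called higher than in Macro, but only 7 higher than in Mono 2, with a median of 1.26 against Mono 2. Csf1r, the receptor for the macrophage growth factor CSF1, had 1297 and 1223 CPM in Mono 1, against 129 and 161 in Mono 2 and 0 and 21.2 in Macro (2.95 ± 0.17 over Mono 2). Adgre1, which encodes the F4/80 antigen, had 426 and 384 CPM in Mono 1, against 88.3 and 92.7 in Mono 2 (2.01 ± 0.21) and 0 UMIs in Macro (at least 69.4-fold higher). The lysozyme gene Lyz2, shared by monocytes and macrophages, had 15943 and 14007 CPM in Mono 1, against 13319 and 7951 in Mono 2, a fold of 0.45 ± 0.37 that was not called. The signalling adaptors Tyrobp and Fcer1g, the protease gene Ctss and the integrin Itgam were likewise not called between Mono 1 and Mono 2.

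**Figure D2:**
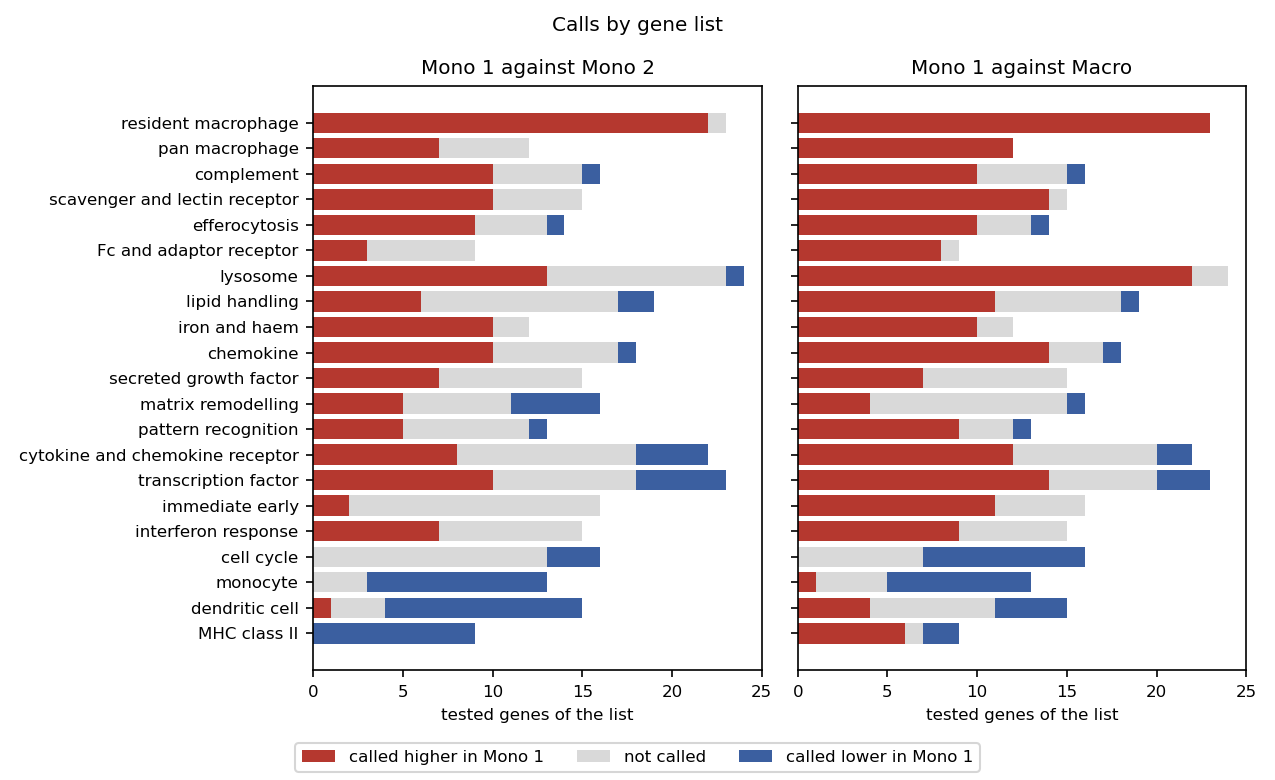
Number of tested genes of each of 21 lists that were called higher in Mono 1, not called, or called lower in Mono 1, against Mono 2 on the left and Macro on the right. Against Mono 2 the resident macrophage list is called higher in 22 of 23 genes, while the monocyte, dendritic cell and MHC class II lists are called lower in 10 of 13, 11 of 15 and 9 of 9.

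Complement genes divided by role. The recognition subunit C1q stood out: C1qb had 6162 and 6043 CPM in Mono 1, against 489 and 885 in Mono 2 and 25.1 and 21.2 in Macro, and C1qc 5345 and 4863 in Mono 1, against 234 and 470 in Mono 2 and 12.5 and 24.8 in Macro. The proteases that bind C1q were low by contrast: C1ra had 34.3 and 23.2 CPM in Mono 1 and C1s1 7.15 and 14.4, and both were called lower in Mono 1 than in the non-immune populations, with the highest means in Fibro 2, of 498 CPM for C1ra and 531 CPM for C1s1. The C1ra call was lost with cells thinned. Against Mono 2, C1ra was called higher in Mono 1 (1.97 ± 0.60, edgeR quasi-likelihood adjusted p = 0.0189), and C1s1 was not called. The anaphylatoxin receptors were high. C5ar1, the C5a receptor, had 725 and 650 CPM in Mono 1, against 20.4 and 14.1 in Mono 2 and 20.9 and 3.54 in Macro (5.23 ± 0.25 over Mono 2). C3ar1, the C3a receptor, had 250 and 195 CPM in Mono 1, against 6.79 and 18.1 in Mono 2 (3.82 ± 0.37). Vsig4, the receptor for C3b fragments on tissue macrophages, had 38.6 and 33.6 CPM in Mono 1 and 0 UMIs in Mono 2 and in Macro (at least 9.33-fold and 6.15-fold higher), and DESeq2 called neither difference. Among soluble components C4b had 237 and 238 CPM in Mono 1 against 3 UMIs in Mono 2 (ratio 62.6, 21.3 to 305). Properdin (Cfp), which stabilises the alternative-pathway convertase, was the list's member called lower than in Mono 2, with 469 and 591 CPM in Mono 1 and 764 and 568 in Mono 2 (-0.42 ± 0.14, edgeR quasi-likelihood adjusted p = 0.0408). Its values overlap between the populations, and the call was lost with DESeq2. In all, 10 of 16 complement genes were called higher than in Mono 2 and 1 lower, with a median of 2.98.

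Uptake genes were mostly higher. Of 15 scavenger and lectin receptors 10 were called higher than in Mono 2 and 14 higher than in Macro, none lower, with medians of 1.60 and 5.99. Msr1, the class A scavenger receptor, had 154 and 120 CPM in Mono 1, against 13.6 and 10.1 in Mono 2 (3.40 ± 0.42) and 0 UMIs in Macro (at least 23.0-fold higher). Cd36, which binds oxidised lipoproteins, had 549 and 690 CPM in Mono 1, against 129 and 177 in Mono 2 (1.92 ± 0.23), although its mean in EC 2 was 3578. Of 14 genes for the clearance of dead cells 9 were called higher than in Mono 2, with a median of 1.99. Mertk, the receptor kinase that engages dying cells, had 82.9 and 92.8 CPM in Mono 1, against 3.40 and 8.06 in Mono 2 (3.69 ± 0.45), and Gas6, its bridging ligand, 844 and 723 in Mono 1, against 37.4 and 28.2 in Mono 2 (4.47 ± 0.24) and a mean of 1517 in Fibro 1. Trem2, a lipid receptor, had 210 and 200 CPM in Mono 1, against 0 and 12.1 in Mono 2 (4.61 ± 0.39) and 0 UMIs in Macro (at least 35.4-fold higher). Dock2, a regulator of the cytoskeleton in leukocytes, was lower, at 55.8 and 60.0 CPM in Mono 1 and 91.7 and 123 in Mono 2 (-1.05 ± 0.24), a call lost with cells thinned. Among Fc receptors Fcgr3 had 877 and 850 CPM in Mono 1, against 360 and 195 in Mono 2 (1.59 ± 0.16), while the inhibitory Fcgr2b was not called, with 483 and 505 in Mono 1 and 350 and 330 in Mono 2.

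Lysosomal genes followed, with 13 of 24 called higher than in Mono 2 and 22 higher than in Macro (medians 0.84 and 2.50). Ctsb, the protease cathepsin B, had 2651 and 2511 CPM in Mono 1, against 333 and 465 in Mono 2 (2.55 ± 0.19). Lgmn, the protease legumain, had 992 and 966 CPM in Mono 1, against 105 and 117 in Mono 2 and 25.1 and 42.5 in Macro (4.94 ± 0.27 over Macro). The values of both proteases in Mono 1 lay far above those of Mono 2 in each library. Psap, the precursor of the saposins that help degrade sphingolipids, went the other way, with 1501 and 1467 CPM in Mono 1 and 3722 and 3075 in Mono 2 (-1.32 ± 0.16).

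Of 19 lipid handling genes 6 were called higher than in Mono 2, 2 lower and 11 not called (median 0.61). Apoe, the apolipoprotein that carries cholesterol out of macrophages, ranked 2 among all genes of Mono 1 after Malat1, with 27169 and 18562 CPM in Mono 1, against 520 and 542 in Mono 2 and 289 and 503 in Macro (5.30 ± 0.22 and 5.96 ± 0.23). The cholesterol exporter Abca1 had 87.2 and 88.8 CPM in Mono 1, against 10.2 and 18.1 in Mono 2 (2.44 ± 0.44), whereas its relative Abcg1 had 5.72 and 4.80 in Mono 1, against 40.8 and 42.3 in Mono 2 (-3.14 ± 0.59), a call lost with cells thinned. Lipoprotein lipase (Lpl) had 77.2 and 96.8 CPM in Mono 1, against 924 and 1235 in Mono 2 (-3.78 ± 0.23). Of 8 tested genes reported in macrophages of atherosclerotic lesions, 1 (Trem2) was called higher than in Mono 2 and 4 lower, with a median of -2.16. Against Macro 2 of these 8 were called higher and none lower (median 0.91). Against the non-immune populations 4 were called higher and 3 lower. The galectin Lgals3 had 154 and 238 CPM in Mono 1, against 1355 and 1050 in Mono 2 (-2.69 ± 0.19). Mmp12, the macrophage elastase, had 4.29 and 17.6 CPM in Mono 1, against 289 and 242 in Mono 2 (-4.48 ± 0.39), a call lost with DESeq2. Spp1, osteopontin, had 2 UMIs in all of Mono 1.

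Iron and haem genes were called higher than in Mono 2 in 10 of 12 cases and lower in none (median 1.63). Beside Cd163, the haem oxygenase gene Hmox1 had 273 and 290 CPM in Mono 1, against 64.5 and 109 in Mono 2 (1.5 ± 0.2), and Blvrb, a biliverdin reductase, 509 and 536 in Mono 1, against 6.79 and 62.5 in Mono 2 (3.55 ± 0.26). The ferritin light chain Ftl1 had 12376 and 13477 CPM in Mono 1, against 6317 and 5900 in Mono 2 (0.95 ± 0.13). The iron exporter Slc40a1 had 42.9 and 44.8 CPM in Mono 1 and 1 UMI in Mono 2 (ratio 34.9, 6.10 to 1394). Haemoglobin transcripts, which macrophages do not make, summed to 12013 and 8164 CPM in Mono 1, against 7346 and 3424 in VSMC, 16555 and 5846 in EC 1, 16574 and 2124 in Macro, and 3623 and 23324 in EC 2. The 10% of Mono 1 cells with most of them held 78.3% and 82.2% of those in Mono 1. The part of these transcripts in the iron and haem values was not tested.

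Of 18 chemokine genes 10 were called higher than in Mono 2 and 14 higher than in Macro, with 1 lower in each comparison (medians 1.20 and 4.71). Beside Pf4, Ccl24 (eotaxin 2, which attracts eosinophils) had 666 and 730 CPM in Mono 1, against 20.4 and 26.2 in Mono 2 (4.74 ± 0.22) and 1 UMI in Macro. Cxcl2, which attracts neutrophils, had 1732 and 1234 CPM in Mono 1, against 173 and 278 in Mono 2 (2.50 ± 0.25) and 4.18 and 10.6 in Macro. The monocyte attractants Ccl7 and Ccl12 had 206 and 322 and 493 and 286 CPM in Mono 1, against 17.0 and 12.1 and 0 and 8.06 in Mono 2 (4.16 ± 0.42 and 6.02 ± 0.38). Ccl2, the main CCR2 ligand, differed less, with 226 and 301 CPM in Mono 1 and 81.5 and 195 in Mono 2 (0.75 ± 0.20), a call lost with DESeq2. Ccl8 had 345 and 282 CPM in Mono 1 and 0 UMIs in Mono 2 and in Macro (at least 80.2-fold and 52.9-fold higher). Ccl6 and Ccl9 were high in both monocyte-named populations and were not called between them: Ccl6 had 2151 and 2360 CPM in Mono 1 and 2275 and 1818 in Mono 2, and Ccl9 1208 and 1839 in Mono 1 and 1382 and 1346 in Mono 2. Ccl4 had 366 and 54.4 CPM in Mono 1 and 23.8 and 86.6 in Mono 2. In Mono 1 its log2 ratio of library 2 over library 1 was -2.72. Its fold over Mono 2 was 1.19 ± 0.45 and was not called (edgeR quasi-likelihood adjusted p = 0.0679). Ccl5, a T cell and NK cell chemokine, had 3 UMIs in Mono 1, against 937 and 1529 CPM in Macro, a ratio of Macro over Mono 1 of 817 (278 to 3973).

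**Figure D3:**
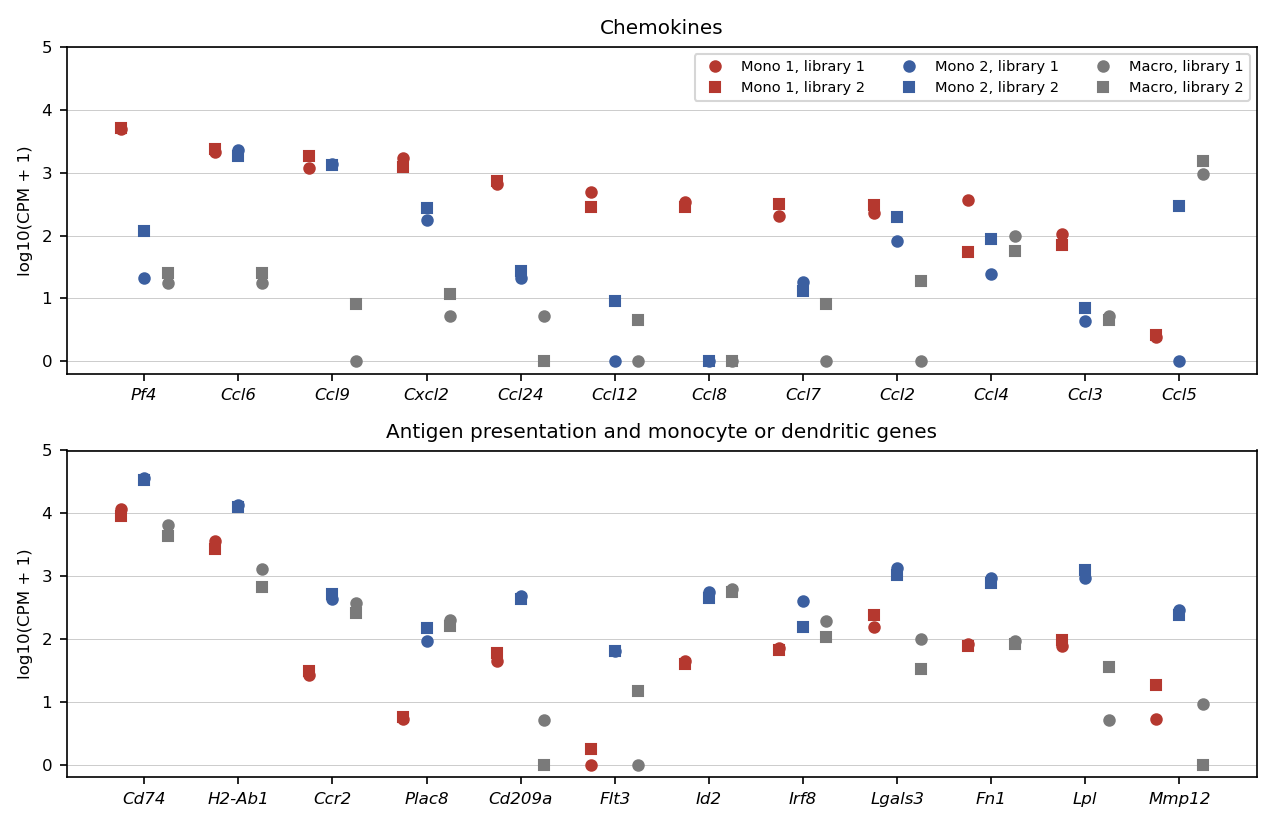
Levels on the log10(CPM + 1) scale of 12 chemokines (top) and of 12 genes of antigen presentation, monocytes and dendritic cells (bottom) in Mono 1 (left of each group), Mono 2 and Macro, with 1 point for each library. Pf4, Cxcl2, Ccl24, Ccl12, Ccl8, Ccl7, Ccl2 and Ccl3 are higher in Mono 1 in both libraries, whereas every gene of the lower panel is higher in Mono 2 than in Mono 1. The genes of the lower panel were chosen with the data known, and Siglech of the dendritic cell list, not drawn, goes the other way.

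Of 12 tested genes of cytokines and their feedback regulators 3 were called higher than in Mono 2 and 2 lower (median 0.10, and 0.53 from the fitted folds alone). The inflammatory cytokine gene Il1b had 15.7 and 8.00 CPM in Mono 1, against 71.3 and 107 in Mono 2 (-3.19 ± 0.47), and Tnf 74.4 and 55.2 in Mono 1, against 20.4 and 28.2 in Mono 2 (1.19 ± 0.42, edgeR quasi-likelihood adjusted p = 0.0466), a call also lost with DESeq2. Tnf was among the 263 genes called above each of the 9 other populations. Among growth factors Igf1 had 339 and 378 CPM in Mono 1, against 13.6 and 20.2 in Mono 2 (4.21 ± 0.37), below its mean of 1257 in Fibro 1. Gas6, Igf1 and 5 more of 15 growth factor genes were called higher than in Mono 2, none lower (median 2.02). Matrix genes went both ways, 5 of 16 higher and 5 lower than in Mono 2. The gelatinase Mmp9 had 162 and 176 CPM in Mono 1, against 13.6 and 8.06 in Mono 2 (3.93 ± 0.47) and 71.1 and 3.54 in Macro. Fibronectin (Fn1) had 81.5 and 77.6 CPM in Mono 1, against 937 and 786 in Mono 2 (-3.57 ± 0.21).

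Receptors separated Mono 1 from Mono 2 in both directions, 8 of 22 cytokine and chemokine receptors higher and 4 lower. Ccr2, by which monocytes leave the blood, had 25.7 and 30.4 CPM in Mono 1, against 435 and 516 in Mono 2 and 372 and 262 in Macro (-4.19 ± 0.22 and -3.33 ± 0.26). With cells thinned it was detected in 2.21% and 1.91% of Mono 1 cells and in 42.5% and 47.8% of Mono 2 cells, against 0.181% and 0.0947% of VSMC, and without thinning in 4.42% and 4.96%, 82.5% and 87.0%, and 0.453% and 0.0947%. Csf2ra, a chain of the GM-CSF receptor, had 147 and 166 CPM in Mono 1, against 452 and 365 in Mono 2 (-1.47 ± 0.17). The TGF-beta receptor chain Tgfbr2 had 170 and 173 CPM in Mono 1, against 13.6 and 20.2 in Mono 2 (3.16 ± 0.32), and Il10rb, a chain of the IL-10 receptor, 220 and 206 in Mono 1, against 71.3 and 38.3 in Mono 2 (1.93 ± 0.26). Among sensors of microbes Tlr7, which detects RNA, had 103 and 119 CPM in Mono 1, against 6.79 and 12.1 in Mono 2 (3.34 ± 0.45), while Tlr3, which detects double-stranded RNA, had 5.72 and 8.00 in Mono 1, against 44.1 and 34.3 in Mono 2 (-2.52 ± 0.51). Of 13 such genes 5 were called higher than in Mono 2 and 1 lower (median 1.06).

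Transcription factors showed a comparable division, 10 of 23 called higher and 5 lower than in Mono 2 (median 0.57). Maf, a factor of mature resident macrophages, had 1233 and 1320 CPM in Mono 1, against 3.40 and 12.1 in Mono 2 and 75.3 and 60.2 in Macro (7.03 ± 0.42 and 4.36 ± 0.32). Mef2c had 366 and 264 CPM in Mono 1, against 57.7 and 42.3 in Mono 2 (2.54 ± 0.25). Spi1, which encodes PU.1 and is shared by myeloid cells, was not called, with 326 and 294 CPM in Mono 1 and 316 and 353 in Mono 2. The 5 called lower included Id2, Batf3 and Irf8, which act in dendritic cells. Id2 had 44.3 and 39.2 CPM in Mono 1, against 571 and 453 in Mono 2 (-3.73 ± 0.17), Batf3 34.3 and 28.8 in Mono 1, against 177 and 169 in Mono 2 (-2.60 ± 0.31), and Irf8 70.1 and 66.4 in Mono 1, against 404 and 155 in Mono 2 (-1.99 ± 0.21), the last call lost with cells thinned. Irf4, which also acts in dendritic cells, was not called, with 12.9 and 18.4 CPM in Mono 1 and 10.2 and 38.3 in Mono 2. Cebpb, a factor of monocytes and inflammation, had 751 CPM in Mono 1 of library 1 and 203 in library 2, against 190 and 113 in Mono 2 (1.34 ± 0.18), a call lost without the library term.

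Antigen presentation genes set Mono 1 below Mono 2 and, in part, above Macro. All 9 MHC class II genes were called lower than in Mono 2 (median -2.47), and 6 were called higher and 2 lower than in Macro. Cd74, the invariant chain, had 11764 and 8931 CPM in Mono 1, against 36806 and 34344 in Mono 2 and 6513 and 4404 in Macro (-1.93 ± 0.28 and 1.05 ± 0.27), and the call against Macro was lost with DESeq2. H2-Ab1, a class II beta chain, had 3601 and 2726 CPM in Mono 1, against 13502 and 12592 in Mono 2 and 1305 and 683 in Macro (-2.19 ± 0.25 and 1.81 ± 0.26). The class II accessory chain H2-DMb2 was nearly absent, with 4.29 and 2.40 CPM in Mono 1, against 295 and 316 in Mono 2 and 251 and 113 in Macro (-6.73 ± 0.37 and -5.65 ± 0.47). Against the non-immune populations 8 of the 9 genes were called higher in Mono 1 and none lower.

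Monocyte and dendritic cell markers were low. Of 13 monocyte genes none was called higher than in Mono 2 and 10 were lower (median -2.04). Ly6c2 and Chil3, genes of classical monocytes, had 0 UMIs in Mono 1. Plac8, another monocyte gene, had 4.29 and 4.80 CPM in Mono 1, against 91.7 and 149 in Mono 2 and 201 and 159 in Macro (-4.89 ± 0.41 and -5.14 ± 0.42). Of 15 dendritic cell genes 1 was called higher than in Mono 2 and 11 lower (median -3.30), and against Macro 4 were called higher and 4 lower, with a median of -0.03 (2.60 when taken from the fitted folds alone). Flt3, the growth factor receptor of dendritic cells, had 1 UMI in Mono 1 and 64.5 and 64.5 CPM in Mono 2, a ratio of Mono 2 over Mono 1 of 126 (21.6 to 5062). Cd209a, a lectin of monocyte-derived dendritic cells, had 44.3 and 59.2 CPM in Mono 1, against 486 and 441 in Mono 2 (-3.23 ± 0.18). The exception was Siglech, a lectin of plasmacytoid dendritic cells that some tissue macrophages also make, with 62.9 and 82.4 CPM in Mono 1 and 0 UMIs in Mono 2 (at least 19.9-fold higher). The aspartic protease gene Napsa had 1 UMI in Mono 1 and 397 and 405 CPM in Mono 2, a ratio of Mono 2 over Mono 1 of 784 (140 to 31057). Neutrophil genes summed to 41.5 and 12.0 CPM in Mono 1, against 3702 and 6.05 in Mono 2 and 18118 and 0 in Macro, so the neutrophil genes called lower in Mono 1 rest on library 1. There only 2 of 40 Mono 2 cells and 3 of 89 Macro cells had at least 2 of these UMIs, and the richest cell held 1084 in Mono 2 and 1608 in Macro.

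Stress, interferon and growth genes were compared last. Immediate early genes, which dissociation can induce, were mostly not called against Mono 2. Of 16 tested, 2 (Egr1 and Ier3) were called higher, against 9.01% of all tested genes, and none lower (median 0.36). Higher than in Macro were 11 (14.1% of all genes), and higher than in the mean of the non-immune populations 15 (24.0% of all genes). The list summed to 8434 and 9256 CPM in Mono 1, against 4363 and 11749 in Neuron. Egr1, a zinc finger factor, had 500 and 841 CPM in Mono 1, against 132 and 278 in Mono 2 (1.56 ± 0.24). Interferon response genes were called higher than in Mono 2 in 7 of 15 cases and lower in none (median 1.66), led in level by Ifi27l2a with 2511 and 2260 CPM in Mono 1, against 788 and 399 in Mono 2 (1.90 ± 0.25). Ifit3, another of these genes, had 78.6 and 8.00 CPM in Mono 1 of libraries 1 and 2. Of 16 cell cycle genes none was called higher than in Mono 2 or Macro, 3 were lower than in Mono 2 and 9 lower than in Macro (medians -0.59 and -1.81). Against the mean of the non-immune populations 13 of the 16 were called higher in Mono 1 and none lower. The list summed to 346 and 591 CPM in Mono 1, against 132 and 150 in VSMC. The sums were 485 and 908 CPM in Neuron and 349 and 324 in EC 2, and below Mono 1 in the other non-immune populations. Of the called genes, Birc5, Ccna2 and Cenpf had log2 ratios of -0.80, -0.51 and -0.82 in library 1. In library 2 these were 1.71, 1.10 and 1.51. Top2a, a topoisomerase of dividing cells, had 5.72 and 22.4 CPM in Mono 1, against 10.2 and 44.3 in Mono 2 and 96.2 and 95.6 in Macro, and was detected in 2.21% and 1.91% of Mono 1 cells (VSMC 0.0907% and 0.284%) and, with cells thinned, in 0% and 0.763% (VSMC 0.0907% and 0.0947%).

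Some genes were spread unevenly over the Mono 1 cells. In cells thinned to 1300 UMIs, 1343 of 1503 genes with a mean of at least 0.1 UMIs had a variance below 1.5 times their mean in both libraries. Retnla, which encodes the secreted protein RELM-alpha, had a variance over mean of 26.2 and 41.7, and the 10% of cells with most held 88.6% and 83.3% of its UMIs. It was detected in 27.6% and 27.5% of thinned Mono 1 cells against 6.44% and 3.88% of VSMC (36.5% and 41.6% against 18.9% and 20.8% without thinning), and summed to 2562 and 4851 CPM in Mono 1, against 15635 and 10204 in Mono 2. Cxcl2 had values of 13.9 and 10.6, with 83.2% and 71.1% of its UMIs in the top 10% of cells. Ccl8 and Ccl12 had 92.0% and 82.7% and 80.7% and 87.8% in the top 10% of cells. Their variance over mean was lower than that of Cxcl2, at 3.70 and 3.62 for Ccl8 and 5.14 and 6.20 for Ccl12. The share in the top 10% of cells also rises as the mean of a gene falls. Means were 0.28 and 0.37 UMIs for Ccl8 and 0.60 and 0.37 for Ccl12, against 1.81 and 1.52 for Cxcl2. Cxcl2 was detected in 26.5% and 27.5% of thinned Mono 1 cells against 1.27% and 0.284% of VSMC (32.0% and 32.8% against 3.17% and 2.56% without thinning). For C1qa, by contrast, the top 10% of cells held 19.3% and 19.0% of the UMIs. Haemoglobin genes had the largest values (Hbb-bs 102 and 173).

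**Figure D4:**
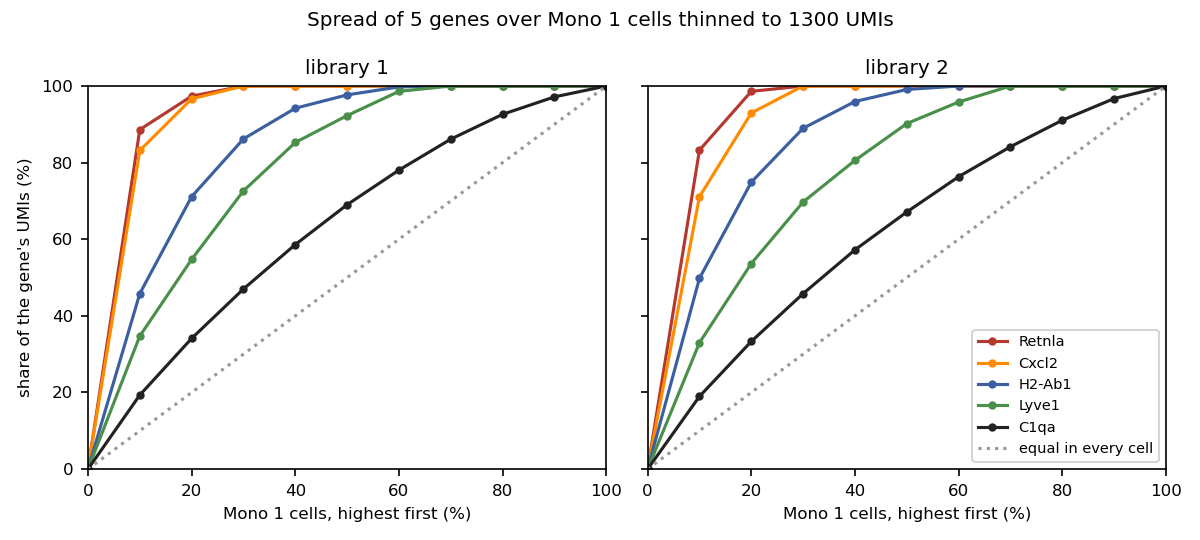
Cumulative share of the UMIs of 5 genes over Mono 1 cells thinned to 1300 UMIs and ranked from highest to lowest, in each library; the dotted line marks an equal share in every cell. Retnla and Cxcl2 reach 88.6% and 83.2% of their UMIs in the first 10% of cells of library 1, while C1qa reaches 19.3% and lies nearest to the dotted line.

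The class II genes varied among Mono 1 cells as a block. Per cell the 9 genes summed to a median of 31 UMIs in library 1 and 21 in library 2 of Mono 1, against 463.5 and 419 in Mono 2, at full depth (median 7286 and 6920 UMIs per cell in Mono 2), and the top 10% of Mono 1 cells held 43.7% and 47.3% of them. Across Mono 1 cells (n = 181 and 262) the Spearman correlation of H2-Ab1 with Cd74 was 0.87 and 0.84, with H2-Aa 0.86 and 0.83, with H2-Eb1 0.82 and 0.85 and with H2-DMa 0.44 and 0.48. H2-Ab1 was negatively related to Lyve1 (-0.27 and -0.26), and Lyve1 positively to Ccl6 (0.41 and 0.33) and Folr2 (0.24 and 0.32). Ccr2 showed weak relations, at 0.20 and 0.18 with Cd52 and -0.02 and -0.05 with Lyve1. Cd209f was related to its family member Cd209g (0.52 and 0.42) and to Retnla (0.25 and 0.47). The correlations describe cells that share a library and were thinned to 1 depth. In such sparse counts the weak ones are no finding, and Retnla, Cxcl2 and Cd209f were chosen as partners after their values were seen.

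The 2 libraries were also compared within Mono 1. Over 4690 genes with at least 50 UMIs in Mono 1 the Pearson correlation across genes of log2 CPM was 0.959 (genes are not independent replicates). Genes of very different levels raise such a correlation, and no other pair of sums was set beside it. Of these genes 38 were over 2-fold higher in library 2 and 36 over 2-fold higher in library 1. Apart from Xist, Ifit3, Ccl4 and Cebpb led those higher in library 1. Cfd, the adipocyte-derived complement factor D, led those higher in library 2, with 105 CPM in library 2 and 8.58 in library 1, and the metallothionein gene Mt2 had 593 CPM in library 2 and 242 in library 1. Adipocyte genes summed to 158 CPM in Mono 1 of library 2 and 21.4 in library 1, and in VSMC to 126 in library 2 and 9.90 in library 1. Markers of stromal cells were present at low levels. Smooth muscle genes summed to 1800 and 1143 CPM in Mono 1, against 43840 and 40986 in VSMC, and fibroblast genes to 848 and 1723 CPM in Mono 1, against 36548 and 45755 in Fibro 1. Their part in the Mono 1 values was not tested beyond leaving out the 10% of cells richest in them, after which 259 of the 263 genes were still called above every other population.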

How the data were processed

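The deposited table holds counts of UMIs per gene and cell, for which the submitters' processing notes name Cell Ranger 2.1, beside the authors' name of the population of each cell. The genome build behind the counts is not given in the sources used here. Cells were taken as deposited and assigned to libraries by their barcode suffix. Scrublet (scanpy 1.11.5, expected doublet rate 0.05) called 58 and 26 doublets in libraries 1 and 2, of which 9 and 5 were Mono 1 cells, and these were kept except in an alternative.

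UMIs were summed over each population and library into 20 sums of at least 10 cells. A model with population and library terms was fitted with edgeR 4.0.16 in R 4.3.3 (filterByExpr, TMM, quasi-likelihood test, Benjamini-Hochberg adjustment, threshold 0.05), with DESeq2 1.42.0 as an alternative. The procedure was also run on simulated counts with the same spread for all genes, which is simpler than a spread that differs by gene. No conclusion is drawn from that run. The libraries pair the populations because each library is 1 preparation, and the Mono 1 deviations between libraries correlated with those of the 9 other populations at 0.21 to 0.50. Bounds use 3 counts over a population. Cells were thinned to 1300 UMIs for shares and for variance over mean. Levels were not scaled by gene length.

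The members, gene lists and tests were chosen with earlier results of these data known. Named genes are the given markers, members of the lists (by preference the most abundant in Mono 1 and those against their list), the 10 largest folds in each direction per comparison, the 20 genes with the largest lowest fold over the 9 other populations, the 20 with the largest variance over mean, and the 10 closest partners of Lyve1, Ccr2 and H2-Ab1. Intervals cover counting error only. Western-diet cells and libraries of low depth are not analysed here.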

Additional observations from a re-analysis of the deposited data

Results flagged for a closer look

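The Y-linked genes Ddx3y, Eif2s3y, Uty and Kdm5d together had 33 UMIs in the Mono 1 cells of library 2, although both libraries are labelled female, and 0 in those of library 1. This signal lies outside the comparisons of populations and was taken up because it is above the 3 counts that a count of 0 allows. Ddx3y, an RNA helicase gene, had 19 of these UMIs, Eif2s3y 9, Kdm5d 4 and Uty 1. What the difference does to the other values was not tested, since library and sex cannot be told apart.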

How the results depend on the processing

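With cells thinned to 1300 UMIs before summing, 6879 genes were tested, and fewer were called: 2319 against the non-immune populations (1493 higher and 826 lower in Mono 1), 635 against Mono 2 (405 and 230), 1409 against Macro (827 and 582), and 147 above each of the 9 others, of which 139 were among the 263. Without the replicate block (the library term) the calls numbered 3903 against the non-immune populations, 1426 against Mono 2 and 2349 against Macro, and 211 of the 263 genes were kept. DESeq2 kept 178 of the 263 and RLE size factors 226. The share higher against the non-immune populations was 59.7%, and 49.1% with their cells summed to 1 population; against Mono 2 it was 52.6%, and 63.8% with cells thinned, 44.2% with DESeq2, 47.6% with RLE and 49.4% with only the 2 populations in the fit; against Macro it was 58.7%, and 48.9% with DESeq2. The median log2 fold of all genes against Macro was 0.12, and 0.00 with RLE size factors; against Mono 2 it was 0.14, and 0.38 with cells thinned. With doublets left out Mono 1 made up 7.97% of cells, and in single libraries 8.01% to 8.21%. Single folds were followed for 90 of the named genes, with 252 called folds as reported. Of 2003 folds of these genes under the alternatives 1954 kept their call, 49 lost it (19 with cells thinned, 15 with DESeq2) and 0 changed sign. Thinning ended the calls against Mono 2 of Timd4, Irf8, Dock2, Abcg1, P2ry12 and Cdc42ep3, and DESeq2 those of Mmp12, Vsig4, Chil3 and Flt3; the cause was not tested. In single libraries, which allow no test or count of calls, 141 of 504 folds moved by less than 1 SD between libraries, 361 by more with the same sign, and 2 changed sign: the fold of Cfp against Mono 2 was 0.051 without library 1 and -0.71 without library 2, and that of Ccl4 against Macro was -0.19 and 1.82. The cell cycle genes Birc5, Ccna2 and Cenpf were not among the 90 genes followed. Their called folds over the non-immune populations also changed sign in library 1 alone (-0.80, -0.51 and -0.82). Mono 1 rests on 181 and 262 cells, and Mono 2 on 40 and 69, so genes with few UMIs in Mono 2 are bounded rather than measured.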
